A study of Mus musculus with 18 samples.

Results

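Developmental transcription factors without a homeodomain were followed across clone C2, an immortalized mouse embryonic fibroblast line carrying a floxed Ezh2 gene that tamoxifen deletes. The genes were listed by the names of their families. The list held 59 genes of the T-box, Sox, Gata, AP-2, Ebf, Hey and Hes, tissue-specific basic helix-loop-helix (bHLH), Runx and zinc finger families, and 58 of them were measured among 18820 genes. Runx2 had no probe set that carried its symbol alone, and its expression was not analysed here. Ebf2, Tbx18 and Gata5 had 2 probe sets each, and the one with the higher mean was used.

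RNA was measured on 18 Affymetrix mouse gene arrays, with 2 arrays in each of 9 groups. In the time course, cells given tamoxifen were collected at days 5, 18 and 32 and cells given the ethanol vehicle served as reference. The rescue experiment comprised Ezh1 pre-rescue and Ezh2 pre-rescue cells, to which a retrovirus supplied Flag-tagged Ezh1 or Ezh2 ahead of the deletion, Ezh2 post-rescue cells, which received Flag-tagged Ezh2 after the deletion, Ezh2 null cells, and control cells wild type for Ezh2 by their label. All 9 groups share the starting cells, which are, by the study's methods, 1 clone grown from a pool of c-Myc-transformed fibroblasts with 1 floxed and 1 already deleted Ezh2 allele and a tamoxifen-activated Cre (CreERT2) at the ROSA26 locus. Vehicle and control cells therefore also carried c-Myc, the Cre and 1 deleted allele. Every treated group was set against the same 2 vehicle arrays, and tamoxifen and the time in culture cannot be told apart from the loss of Ezh2. The labels do not state whether replicates were separate cultures. For the time course and the rescue ahead of the deletion the study names 2 biological replicates, without saying how they were kept apart. All come from 1 clone, and p-values reflect only how far these arrays spread.

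Values are log2 intensities, in which 1 unit is 2-fold, and the number of arrays limits their precision. A gene was said to rise or fall when limma gave an adjusted p under 0.05 over all 18820 genes, at any fold, and each ± is the standard error of a log2 change between groups of 2 arrays. Replicate arrays correlated across genes with r of at least 0.994. The Ezh2 probe set did not check the deletion, since it read 9.73 and 9.81 at day 32, against 9.37 and 9.43 in vehicle cells, and 10.46 and 10.48 in Ezh2 null cells, against 10.36 and 10.56 in control cells. It read between 11.84 and 12.55 in the cells given Ezh2, and Ezh1 read 11.68 and 11.85 in the cells given Ezh1. Of 13 fibroblast markers, 5 rose and 1 fell at day 5 (38.5% and 7.69%, beside 11.0% and 5.72% of all genes). At day 32, 0 rose and 7 fell (0% and 53.8%, beside 18.4% and 14.2%). Among the 7, Dcn and Lum fell by 2.89 and 3.57, while Col1a1 read 7.24 and 7.40, against 7.29 and 7.17 in vehicle cells. Of the 8 epithelial markers 0 rose and 0 fell at day 32. Levels were compared only within an experiment, because the 2 experiments appear to have been normalized apart, which the study's methods do not state.

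These factors bind DNA through distinct domains (the HMG box in Sox proteins, a pair of zinc fingers in Gata proteins, the T-box, the Runt domain and others) and set out cell lineages in the embryo. Ezh2 is the enzyme of Polycomb repressive complex PRC2, by which H3K27me3, a mark of silent genes, is laid down. Genes for developmental transcription factors, which often have promoters rich in CpG, are the best known targets of that complex, and many of them are silent in fibroblasts.

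Of the 58 genes, 33 passed the test at no time after tamoxifen, and the others moved in both directions. The share of all genes that passed at no time is not given here. At day 5, 7 rose and 5 fell (12.1% and 8.62% of the members, beside 11.0% and 5.72% of all genes). At day 18, 10 rose and 8 fell (17.2% and 13.8%, beside 15.2% and 10.5%), and at day 32, 11 rose and 10 fell (19.0% and 17.2%, beside 18.4% and 14.2%). For calls at any fold the shares of members were thus near those of all genes. Changes of at least 2-fold were found in 0 members upward and 1 downward at day 5 (0.967% and 0.186% of all genes). The counts were 4 and 1 at day 18 (2.10% and 0.940%), and 4 and 3 at day 32 (2.57% and 1.66%). At 2-fold the shares of the 58 members were above those of all genes, except for rises at day 5. These counts are small, and no test of them was run. The median change of the members at day 32 was −0.06, beside −0.02 over all genes. When each array was instead centred on its median over all genes, the median change of all genes moved to −0.15, −0.18 and −0.14 at days 5, 18 and 32, and the members split into 5 higher and 19 lower, 7 and 19, and 9 and 18. Calls of small changes in either direction therefore depend on the scaling. With that centring the rises of Gata3 and Osr2 at day 5 no longer passed. The same held for Sox11, Gata4 and Tfap2a at day 18, and for Tfap2a and Runx3 at day 32.

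**Figure D1:**
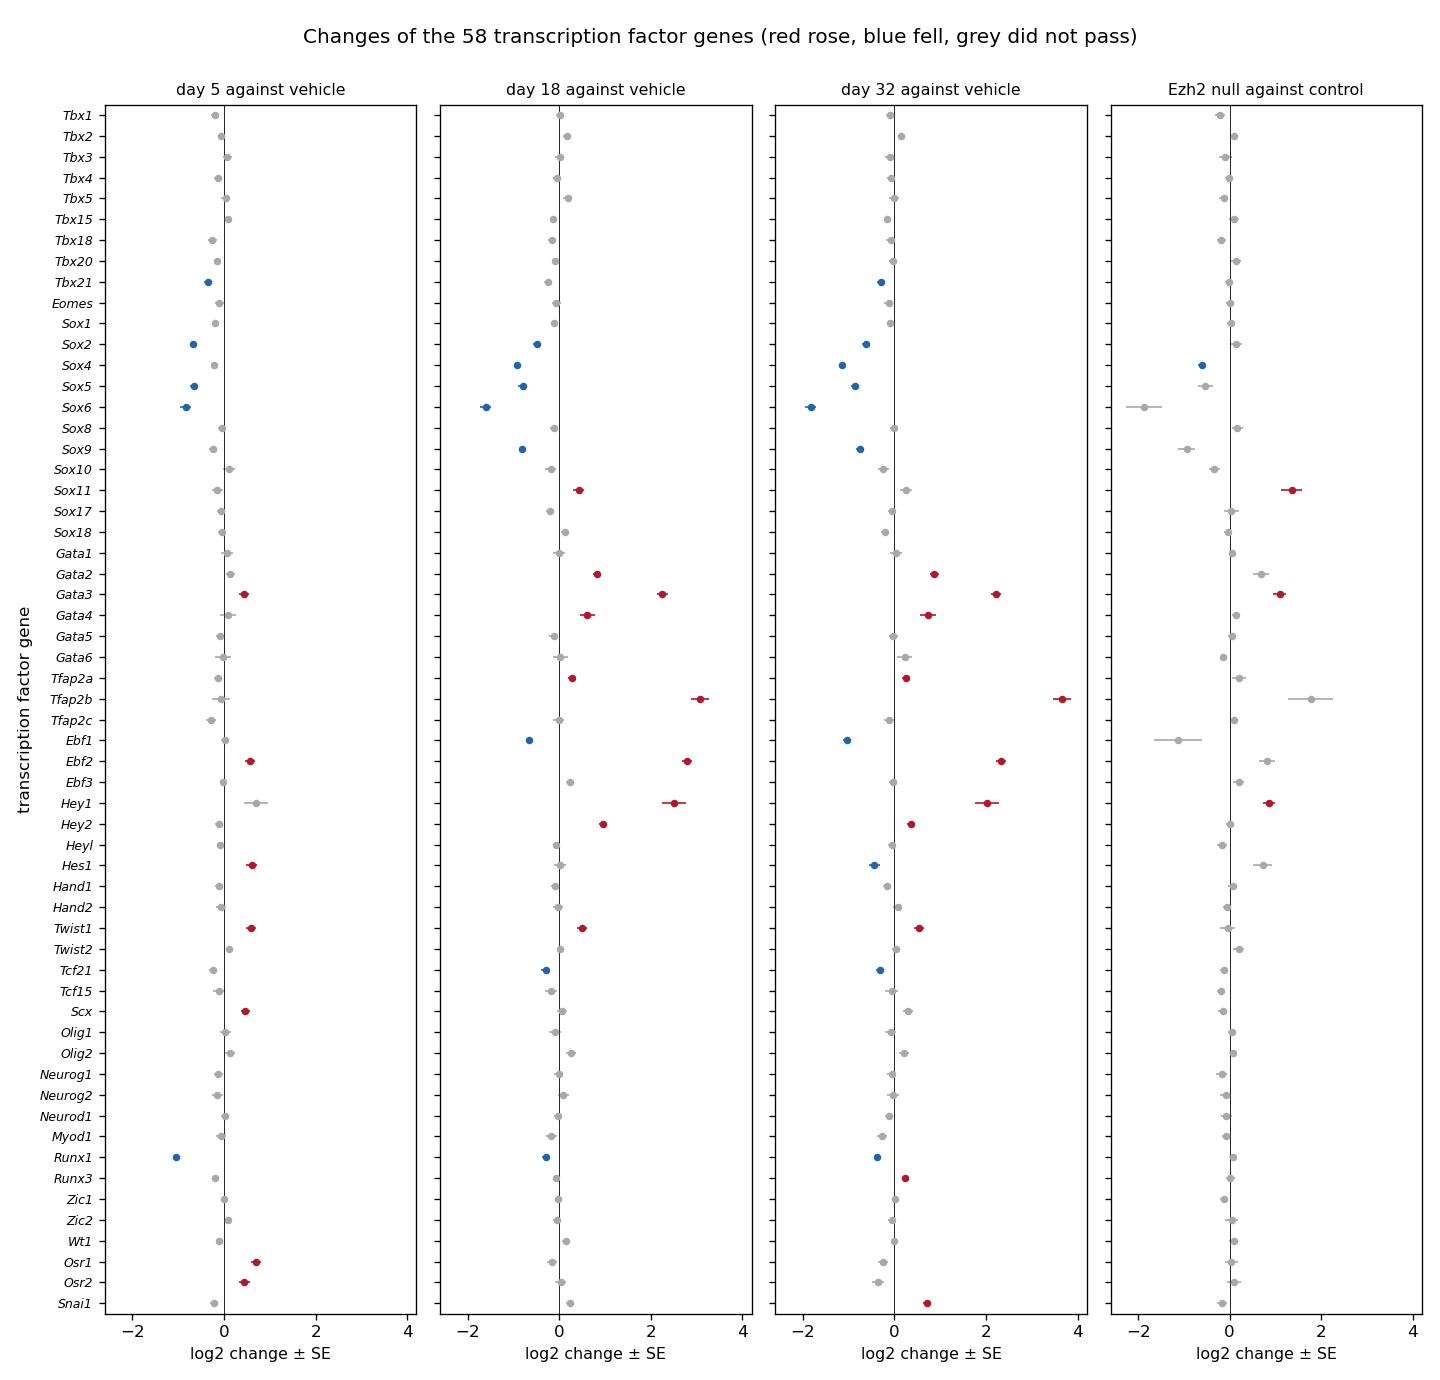
Log2 change (points) with its standard error (bars) of each of the 58 genes at day 5, day 18 and day 32 against vehicle and in Ezh2 null against control cells, 2 arrays per group. Red genes rose and blue genes fell at an adjusted p under 0.05, grey genes did not pass. Tfap2b, Ebf2, Gata3 and Hey1 stand to the right at days 18 and 32 and Sox6 to the left, while 33 genes are grey in every panel.

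By level, 31 members lay below the median of their array on all 18 arrays, 17 lay above it on all of them, and 10 on some. Of the 11 genes that rose by day 32, 6 lay below that median on both vehicle arrays and 5 above it, and of the 10 that fell, 2 lay below and 8 above. The 33 genes that passed the test in none of the comparisons with vehicle also passed in none of the rescue comparisons. They were 9 of the 10 T-box genes, Sox1, Sox8, Sox10, Sox17, Sox18, Gata1, Gata5, Gata6, Tfap2c, Ebf3, Heyl, Hand1, Hand2, Twist2, Tcf15, Olig1, Olig2, Neurog1, Neurog2, Neurod1, Myod1, Zic1, Zic2 and Wt1. Their changes against vehicle lay between −0.29 and 0.25, and 27 of the 33 were below the array median on all 18 arrays.

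The gene that moved furthest was Tfap2b, an AP-2 factor known from neural crest and kidney. Tfap2b read 3.64 and 3.35 in vehicle cells, 3.44 and 3.41 at day 5, 6.76 and 6.38 at day 18, then 7.48 and 6.82 at day 32. The day 5 arrays lay within the vehicle range and all 4 later arrays stood apart from it. Such separation of both arrays of a group from both vehicle arrays was common, and was found in 54.6%, 61.9% and 63.5% of all genes at days 5, 18 and 32. At days 18 and 32 the change was 3.08 ± 0.20 and 3.66 ± 0.20 (limma, adjusted p = 6.83e-06 and 1.67e-06), the later value being 12.6-fold. Its paralog Tfap2a, which acts in neural crest and epidermis, rose by only 0.28 ± 0.08 and 0.25 ± 0.08 (adjusted p = 0.0314 and 0.0393), and Tfap2c, known from trophoblast and germ cells, did not pass.

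Gata3, which directs T cell, trophoblast and luminal mammary lineages, read 4.51 and 4.24 in vehicle cells, 4.80 and 4.82 at day 5, 6.56 and 6.68 at day 18, then 6.73 and 6.45 at day 32. All 6 treated arrays lay above both vehicle arrays. Its rise was 0.44 ± 0.12, 2.25 ± 0.12 and 2.22 ± 0.12 at the successive times (adjusted p = 0.0295, 1.52e-06 and 1.15e-06). Gata2, needed in blood stem cells, and Gata4, a factor of heart and endoderm, rose at both later times, by 0.83 ± 0.09 and 0.61 ± 0.17 at day 18 and by 0.87 ± 0.09 and 0.73 ± 0.17 at day 32. The other 3 Gata genes measured did not pass at any time.

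Ebf2, known from brown fat precursors and neurons, read 4.53 and 4.23 in vehicle cells, 4.97 and 4.94 at day 5, 7.13 and 7.21 at day 18, then 6.79 and 6.61 at day 32. It was highest at day 18, where the change was 2.79 ± 0.11 (adjusted p = 2.97e-07), and lower at day 32 than at day 18 by 0.47 on the log2 scale (adjusted p = 0.0422). Its second probe set did not follow, with changes of 0.11, 0.21 and 0.17 at days 5, 18 and 32, and the cause of that disagreement was not tested. Ebf1, best known from B cells and also active in fat and stroma, moved the other way. Ebf1 read 10.80 and 10.68 in vehicle cells, 10.71 and 10.80 at day 5, 10.11 and 10.06 at day 18, then 9.71 and 9.71 at day 32. Its decreases at days 18 and 32 were −0.66 ± 0.08 and −1.04 ± 0.08 (adjusted p = 0.000215 and 9.24e-06), and the later arrays did not overlap the vehicle arrays.

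Hey1 and Hey2 encode bHLH repressors downstream of Notch signalling. Hey1 read 4.90 and 3.95 in vehicle cells, 5.13 and 5.10 at day 5, 7.17 and 6.68 at day 18, then 6.53 and 6.35 at day 32. The vehicle arrays lay nearly 1 unit apart, and all later arrays were above both. Hey1 rose by 2.51 ± 0.26 and 2.02 ± 0.26 at days 18 and 32 (adjusted p = 0.000103 and 0.000263). Hey2 rose by 0.96 ± 0.08 at day 18 and by 0.36 ± 0.08 at day 32, and was lower at day 32 than at day 18 by 0.60 (adjusted p = 0.00468). Hes1, another Notch effector, took a different course. Hes1 read 9.60 and 9.46 in vehicle cells, 10.11 and 10.15 at day 5, 9.53 and 9.56 at day 18, then 9.30 and 8.88 at day 32. Hes1 was up by 0.60 ± 0.12 at day 5 (adjusted p = 0.00977), whereas at day 32 it fell by 0.44 on the log2 scale (adjusted p = 0.0213). Of the 20 measured Notch pathway genes upstream of these factors, 4 rose and 1 fell at day 5 (20.0% and 5.00%, beside 11.0% and 5.72% of all genes), and 1 rose and 5 fell at day 32 (5% and 25%, beside 18.4% and 14.2%). Numbl and Maml2 were among the last, and fell by 1.09 and 0.93.

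**Figure D2:**
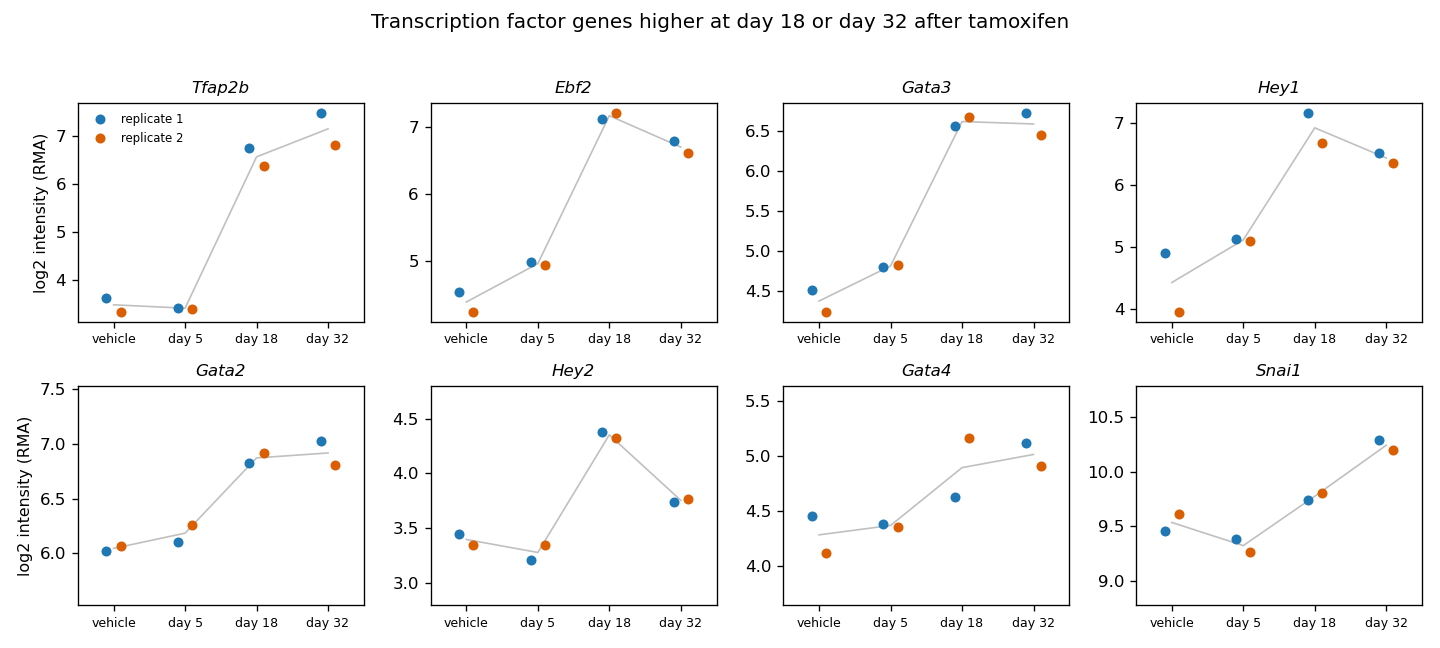
Log2 intensity of 8 genes that rose at day 18 or day 32, in vehicle cells and at days 5, 18 and 32 after tamoxifen; points are the 2 replicate arrays, grey lines join group means, and each panel has its own axis of at least 2 units. Tfap2b changed little by day 5 and was 3.66 above vehicle at day 32, Ebf2, Hey1 and Hey2 were highest at day 18, and Snai1 was highest at day 32.

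Smaller rises were found in several further factors. Snai1, a repressor of E-cadherin in epithelial to mesenchymal transition, rose only late, by 0.71 ± 0.08 at day 32 (adjusted p = 0.000166), and was higher at day 32 than at day 18 by 0.47 (adjusted p = 0.018). Twist1, a bHLH factor of mesenchyme and skull, rose by 0.58, 0.49 and 0.53 at days 5, 18 and 32. Runx3, a factor of T cells and neurons, rose by 0.23 at day 32. Osr1 and Osr2, zinc finger factors of kidney and limb, and Scx, the tendon factor, rose at day 5 by 0.69, 0.44 and 0.47 and did not pass at days 18 and 32. Of these, Osr1 read 5.00 and 5.26 in vehicle cells and 5.69 and 5.95 at day 5, then 4.97 and 4.96 at day 18, then 4.93 and 4.82 at day 32.

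Promoter sequences are shown because CpG-rich promoters are where PRC2 is known to settle. Of the 15 members that only rose at the times after tamoxifen and the 9 that only fell, 9 and 8 had an entry in the RefSeq table (build GRCm38.p6), and 5 of these 17 are printed, chosen after their values were seen and each with a single window in the table. Each sequence is the 250 bases upstream of an annotated start, read in the direction of transcription, with every CG in capitals.
Tfap2b, chr1:19211804-19212053, plus strand: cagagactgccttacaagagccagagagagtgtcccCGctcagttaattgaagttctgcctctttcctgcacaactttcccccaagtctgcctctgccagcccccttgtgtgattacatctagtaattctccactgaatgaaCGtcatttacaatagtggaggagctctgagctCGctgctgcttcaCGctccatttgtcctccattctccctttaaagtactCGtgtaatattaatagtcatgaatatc
Gata3, chr2:9878601-9878850, minus strand: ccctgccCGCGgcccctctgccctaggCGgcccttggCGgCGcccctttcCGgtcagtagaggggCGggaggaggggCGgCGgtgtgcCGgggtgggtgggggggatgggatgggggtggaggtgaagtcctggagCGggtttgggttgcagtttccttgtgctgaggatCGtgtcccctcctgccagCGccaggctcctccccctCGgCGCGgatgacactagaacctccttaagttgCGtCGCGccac
Sox11, chr12:27342719-27342968, minus strand: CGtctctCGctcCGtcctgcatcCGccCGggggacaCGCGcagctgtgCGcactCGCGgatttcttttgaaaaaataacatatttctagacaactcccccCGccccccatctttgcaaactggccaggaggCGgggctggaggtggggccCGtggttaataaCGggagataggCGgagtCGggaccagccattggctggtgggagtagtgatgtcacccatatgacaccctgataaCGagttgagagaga
Sox4, chr13:28953700-28953949, minus strand: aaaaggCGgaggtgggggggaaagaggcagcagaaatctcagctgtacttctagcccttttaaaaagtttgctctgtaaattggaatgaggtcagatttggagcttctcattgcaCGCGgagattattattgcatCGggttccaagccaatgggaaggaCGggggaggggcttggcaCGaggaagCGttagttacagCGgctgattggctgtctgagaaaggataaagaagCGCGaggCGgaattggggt
Sox5, chr6:143947107-143947356, minus strand: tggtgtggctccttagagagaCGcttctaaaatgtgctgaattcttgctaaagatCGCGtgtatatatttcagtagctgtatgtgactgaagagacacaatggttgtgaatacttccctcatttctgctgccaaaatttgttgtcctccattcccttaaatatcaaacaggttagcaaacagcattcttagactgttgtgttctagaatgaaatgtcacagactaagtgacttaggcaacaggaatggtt
The CG count was 5 upstream of Tfap2b, 19 of Gata3, 17 of Sox11, 11 of Sox4 and 3 of Sox5. Of all windows in the table, 55.6%, 19.7%, 23.5%, 35.6% and 71.0% held at least as many. CG is its own reverse complement, so both strands give the same count. Over the 35 listed genes with an entry, Runx2 included, the richest window of each gene held a median of 18 CG, beside 6 over all genes of the table, and the counts ranged from 0 in Runx2 to 43 in Ebf3. In the 9 members that rose the richest window held 5 to 38 CG (median 19), and in the 8 that fell 3 to 27 (median 12.5), so that both groups held poor and rich windows. Tfap2b, which rose most, had the fewest CG of the 9.

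Sox genes were among the members that fell. Of the 11 measured, 5 fell and 0 rose at day 32 (45.5% and 0%, beside 14.2% and 18.4% of all genes), namely Sox6, Sox4, Sox5, Sox9 and Sox2, and no test of the family was run. Sox9 is the master factor of cartilage, and Sox5 and Sox6 are its partners there. Sox6 read 9.00 and 9.35 in vehicle cells, 8.34 and 8.34 at day 5, 7.56 and 7.59 at day 18, then 7.24 and 7.46 at day 32. Groups did not overlap at any time, and the change was −0.84 ± 0.12, −1.60 ± 0.12 and −1.83 ± 0.12 at the successive times (adjusted p = 0.00144, 1.37e-05 and 4.31e-06). Sox5 read 8.33 and 8.52 in vehicle cells, 7.74 and 7.80 at day 5, 7.67 and 7.59 at day 18, then 7.66 and 7.47 at day 32. Most of its decrease was thus present at day 5. Sox9 read 11.23 and 11.44 in vehicle cells, 11.10 and 11.07 at day 5, 10.54 and 10.52 at day 18, then 10.56 and 10.60 at day 32. It passed the test only at days 18 and 32, where it fell by 0.81 and 0.75.

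Sox4, which acts in progenitors of many tissues, read 8.23 and 8.20 in vehicle cells, 7.99 and 8.00 at day 5, 7.27 and 7.32 at day 18, then 7.01 and 7.14 at day 32, and it fell by 1.14 on the log2 scale at day 32 (adjusted p = 4.58e-06). Each later group lay below the group before it. Sox2, a factor of pluripotent and neural stem cells, changed by −0.67 and −0.62 at days 5 and 32 (adjusted p = 0.000569 and 0.000238). Sox11, of the same subgroup as Sox4, rose by 0.42 ± 0.13 at day 18 (adjusted p = 0.0364) and was 0.25 above vehicle at day 32, which did not pass.

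**Figure D3:**
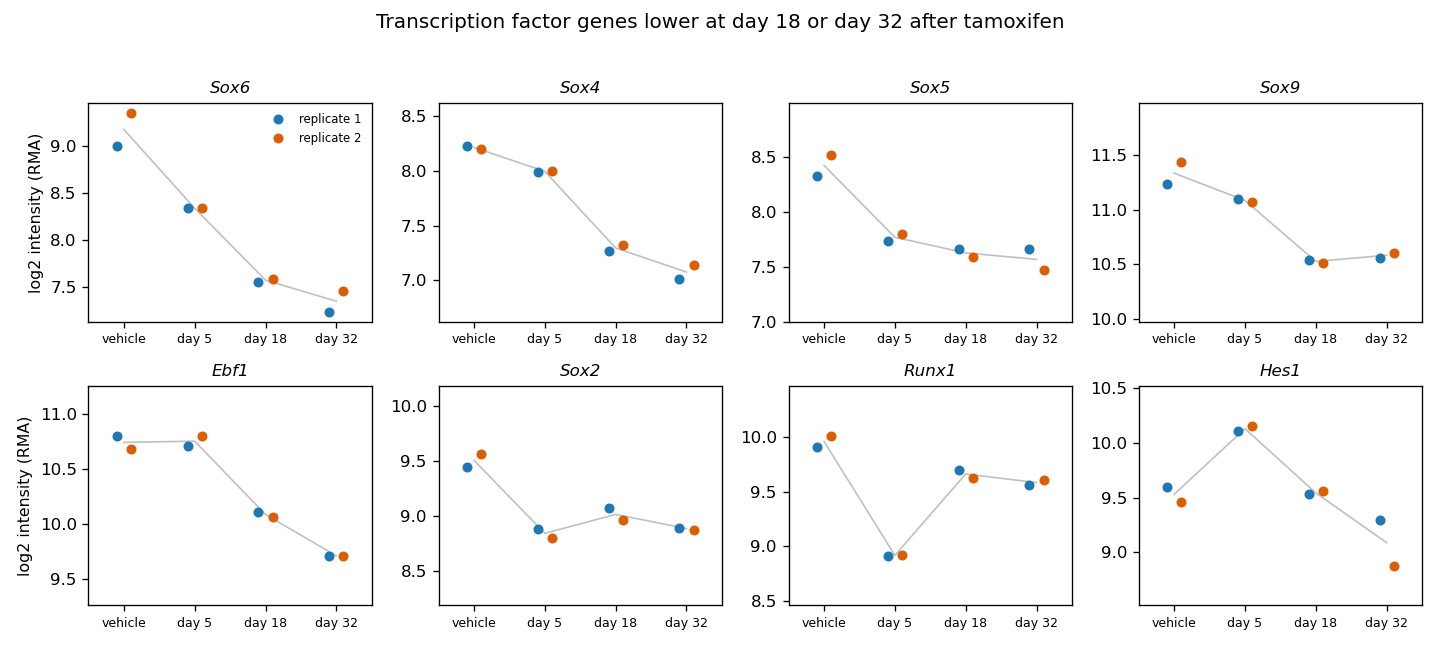
Log2 intensity of 8 genes that fell at day 18 or day 32, in vehicle cells and at days 5, 18 and 32 after tamoxifen; points are the 2 replicate arrays, grey lines join group means, and each panel has its own axis of at least 2 units. Sox6, Sox5 and Sox2 passed as lower already at day 5, and Sox4, Sox9 and Ebf1 passed only from day 18. Sox4 and Sox9 lay below both vehicle arrays at day 5 without passing. Runx1 is lowest at day 5, and Hes1 is highest at day 5.

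Beside these Sox genes, cartilage genes known as their targets fell as well. Of 12 measured, 5 fell at day 5, 8 at day 18 and 9 at day 32 (41.7%, 66.7% and 75%, beside 5.72%, 10.5% and 14.2% of all genes). At each of these times 0 rose. The median change of the list at day 32 was −1.35, beside −0.02 over all genes. Ucma, a secreted protein of cartilage, was 0.04 below vehicle at day 5 and fell by 5.05 at day 18 and 5.56 at day 32. Cnmd, a cartilage membrane protein, fell by 0.72 at day 5, 4.41 at day 18 and 4.71 at day 32. Col2a1, the main collagen of cartilage, fell by 0.49, 1.58 and 1.52. Of 7 tendon genes known as Scx targets, 3 rose and 1 fell at day 5 (42.9% and 14.3%, beside 11.0% and 5.72% of all genes). At day 18, 1 rose and 2 fell (14.3% and 28.6%, beside 15.2% and 10.5%). At day 32, 0 rose and 5 fell (0% and 71.4%, beside 18.4% and 14.2%). Of 8 bone genes, 1 rose and 0 fell at day 32 (12.5% and 0%).

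Runx1, a regulator of blood stem cells that also acts in mesenchyme, was the only member to change by 2-fold at day 5. It read 9.91 and 10.01 in vehicle cells, 8.91 and 8.93 at day 5, 9.70 and 9.62 at day 18, then 9.56 and 9.60 at day 32. The day 5 arrays lay below all others, with a change of −1.04 ± 0.07 (adjusted p = 3.35e-05). Runx1 was higher at day 18 than at day 5 by 0.74 (adjusted p = 5.37e-05) and still fell by 0.38 at day 32 against vehicle (adjusted p = 0.00343). Tcf21, a bHLH factor of mesothelium and fibroblasts, fell by 0.30 at day 18 and 0.32 at day 32, and Tbx21, a factor of T helper cells, by 0.34 at day 5 and 0.29 at day 32, both among the dim genes of these arrays.

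Between the treated times, 13 members rose and 9 fell at day 18 against day 5 (22.4% and 15.5%, beside 15.6% and 16.1% of all genes), and 2 rose and 3 fell at day 32 against day 18 (3.45% and 5.17%, beside 1.40% and 2.75%). Of the members that passed against vehicle, 3 rose at all 3 times (Gata3, Ebf2 and Twist1) and 4 fell at all 3 (Sox2, Sox5, Sox6 and Runx1). The shares of all genes with these patterns are not given here. The day 5 call of Gata3 was lost with median centring (0.29, adjusted p = 0.0993). Osr1, Osr2 and Scx passed only at day 5, when they rose. Over the 3 times the Ebf, Hey and Hes, tissue bHLH and Runx families each held risen and fallen members, and so did the Sox family through Sox11 at day 18 alone, a call that was lost with median centring (0.27, adjusted p = 0.0999). Gata, AP-2 and zinc finger genes that passed only rose, and Tbx21, the 1 T-box gene that passed, fell. Of 53 other measured members of the same families, 3 rose and 3 fell at day 32 (5.66% each, beside 18.4% and 14.2% of all genes). Of 19 dimer partners, inhibitors and cofactors, 6 rose and 5 fell (31.6% and 26.3%), among them Tle4, a Groucho co-repressor, which rose by 1.18, and Id4, an inhibitor of bHLH factors, which rose by 0.81.

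With 1 array left out, the calls of Tfap2b, Ebf2, Gata3, Hey1, Gata2, Hey2, Sox6, Sox4, Sox5, Sox9, Ebf1 and Sox2 at days 18 and 32 held in every fit. Calls were lost for Tbx21, Gata3, Hes1, Scx and Osr2 at day 5, for Sox11, Gata4, Tfap2a, Twist1, Tcf21 and Runx1 at day 18, and for Tbx21, Gata4, Tfap2a, Hes1, Tcf21 and Runx3 at day 32, and each of the arrays compared cost at least 1 call when left out. Leaving out day 5 replicate 2 left 3 members that rose at day 5, against 7, since Gata3, Hes1, Scx and Osr2 no longer passed at changes of 0.43, 0.58, 0.40 and 0.46.

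In the rescue experiment the question was whether the same genes moved with the loss of Ezh2 and whether enzymes supplied before or after the deletion changed that. In Ezh2 null against control cells 3 members rose and 1 fell (5.17% and 1.72%, beside 1.20% and 0.755% of all genes), and 2 of the rises reached 2-fold, as 0.627% of all genes did. Gata3 read 6.96 and 7.38 in Ezh2 null cells and 6.07 and 6.10 in control cells, and rose by 1.09 ± 0.14 (limma, adjusted p = 0.0117). Sox11 read 6.20 and 7.01 in Ezh2 null cells and 5.37 and 5.14 in control cells, and rose by 1.35 ± 0.22 (adjusted p = 0.0291). In neither gene did these groups overlap, as in 43.2% of all genes. Hey1 read 6.32 and 6.73 in Ezh2 null cells and 5.65 and 5.69 in control cells, and rose by 0.85 ± 0.13 (adjusted p = 0.0194). Sox4 read 8.17 and 8.11 in Ezh2 null cells and 8.71 and 8.77 in control cells, and fell by 0.60 on the log2 scale (adjusted p = 0.0194). Without Ezh2 null replicate 2 the changes of Sox4 and Hey1 were −0.51 and 0.64 and no longer passed, and without control replicate 2 those of Sox11 and Hey1 were 1.13 and 0.84 and no longer passed. Without the replicate block 3 members fell, against 1, as Sox6 and Sox9 then passed (adjusted p = 0.0311 and 0.0258).

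Several larger differences did not pass, and in these genes the 2 Ezh2 null arrays lay far apart. Tfap2b read 5.50 and 7.22 in Ezh2 null cells and 4.67 and 4.52 in control cells, a change of 1.77 ± 0.49 (adjusted p = 0.138). Sox6 read 8.26 and 6.94 in Ezh2 null cells and 9.30 and 9.65 in control cells, a change of −1.87 ± 0.39 (adjusted p = 0.0615). Ebf1 read 10.80 and 8.96 in Ezh2 null cells and 10.74 and 11.28 in control cells, a change of −1.13 ± 0.52 (adjusted p = 0.361). In each of the 3 genes, replicate 2 stood further from the control arrays than replicate 1, and for Ebf1 replicate 1 lay within the control range. Sox9 read 10.94 and 10.40 in Ezh2 null cells and 11.44 and 11.77 in control cells (adjusted p = 0.0515). Ebf2 read 7.75 and 7.86 in Ezh2 null cells and 7.34 and 6.63 in control cells (adjusted p = 0.0673), and here the control arrays were the ones that differed.

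The 2 Ezh2 null arrays were also compared over all genes called at least 2-fold at day 32 of the time course, members included. Of the 484 that rose, 24.4% lay at least 1 unit above the control mean in Ezh2 null replicate 1 and 32.9% in replicate 2. Their median difference from that mean was nearly equal, at 0.57 and 0.58. Of the 312 that fell, 12.5% and 26.9% lay at least 1 unit below the control mean, with medians of −0.42 and −0.62. Ucma ran the other way, at 5.53 in replicate 1 and 7.25 in replicate 2, against 9.06 and 9.26 in control cells. Compared within replicates, 9 of the 10 members that passed or changed by at least 0.7 kept their sign in both. These 10 were chosen by the mean of the same differences, so a shared sign is no independent support. The change reached 2-fold in 1 of them within replicate 1 and in 8 within replicate 2. When Ezh2 null replicate 1 was left out, 5 members rose and 4 fell, among them Tfap2b at 2.78 (adjusted p = 0.00244), Sox6 at −2.69 (adjusted p = 0.000461) and Ebf1 at −2.25 (adjusted p = 0.000792), with the lone array assumed to vary like the other groups. When replicate 2 was left out instead, 2 members rose and 1 fell. Tfap2b was then 0.75 above control (adjusted p = 0.269), Ebf1 −0.01 from it (adjusted p = 0.998), and Sox6 passed at −1.05 (adjusted p = 0.0138).

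Enzyme supplied before the deletion gave readings unlike those of Ezh2 null cells in a few members. Gata3 and the probe set used for Ebf2 were first among them. In Ezh1 pre-rescue against Ezh2 null cells 2 members rose and 3 fell (3.45% and 5.17%, beside 0.861% and 1.44% of all genes), and in Ezh2 pre-rescue against Ezh2 null cells 4 rose and 4 fell (6.90% each, beside 3.15% and 4.00%). Gata3 read 5.97 and 6.05 in Ezh1 pre-rescue cells and 6.03 and 5.97 in Ezh2 pre-rescue cells, against 6.96 and 7.38 in Ezh2 null cells. Its changes were −1.16 ± 0.14 (adjusted p = 0.0134) and −1.17 ± 0.14 (adjusted p = 0.00799). Sox4 rose by 0.56 and 0.90, and Hey1 fell by 0.68 in either pre-rescue. In Ezh2 pre-rescue cells Sox6 read 9.29 and 9.75, Sox9 11.55 and 11.73, and Sox11 5.44 and 5.61, and their changes against Ezh2 null cells were 1.92 ± 0.39, 0.97 ± 0.18 and −1.08 ± 0.22 (adjusted p = 0.0312, 0.0262 and 0.0336). In Ezh1 pre-rescue cells the same 3 changes were 1.77, 0.81 and −1.07 and did not pass, but did without the replicate block, when 4 members rose and 5 fell. Of the 12 cartilage genes, 6 rose in Ezh2 pre-rescue and 1 in Ezh1 pre-rescue against Ezh2 null cells (50% and 8.33%, beside 3.15% and 0.861% of all genes). In Ezh2 null against control cells 5 of them fell and 0 rose (41.7% and 0%, beside 0.755% and 1.20%).

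A pair of members also lay apart from control, without passing the test there. Ebf2 read 6.17 and 5.82 in Ezh1 pre-rescue and 5.81 and 5.76 in Ezh2 pre-rescue cells, against 7.75 and 7.86 in Ezh2 null and 7.34 and 6.63 in control cells. It fell by 1.81 and 2.02 against Ezh2 null cells (adjusted p = 0.00874 and 0.00284), and lay 0.99 and 1.20 below control, which did not pass (adjusted p = 0.171 and 0.194). The second Ebf2 probe set did not follow, with changes of −0.12 and −0.04 against Ezh2 null cells, and the cause was not tested. Runx1 read 9.00 and 8.87 in Ezh1 pre-rescue and 9.01 and 8.99 in Ezh2 pre-rescue cells, against 8.19 and 8.31 in Ezh2 null and 8.09 and 8.27 in control cells. It rose by 0.69 and 0.75 against Ezh2 null cells (adjusted p = 0.0185 and 0.0089), and lay 0.75 and 0.82 above control (adjusted p = 0.111 and 0.183). In both genes the arrays of either pre-rescue stood apart from all Ezh2 null and control arrays. Of all genes, 53.3% and 56.3% did so between Ezh1 pre-rescue or Ezh2 pre-rescue and Ezh2 null cells, and 35.8% and 37.7% between these pre-rescues and control cells. Against control 0 members passed in either pre-rescue, with 6 and 7 at an unadjusted p under 0.05, and of all genes 0.0106% and 0% passed. All these calls rest on 2 arrays, since without Ezh1 pre-rescue replicate 1 or without replicate 2 the counts were 0 and 0, and without Ezh2 pre-rescue replicate 1 they were 1 and 1 and without replicate 2 they were 0 and 0. The changes themselves moved less. Without Ezh1 pre-rescue replicate 1 or 2 that of Gata3 was −1.14 or −1.18 and that of Ebf2 −1.86 or −1.75, and without Ezh2 pre-rescue replicate 1 or 2 that of Gata3 was −1.24 or −1.11.

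Between Ezh1 pre-rescue and Ezh2 pre-rescue cells 0 of the 58 members passed, with 1 at an unadjusted p under 0.05, beside 0.00531% of all genes that passed. The differences lay between −0.34 and 0.21. For Gata3 the difference was 0.01, with a 95% interval of −0.31 to 0.34, and for Sox4, which differed most, −0.34, with an interval of −0.55 to −0.14. For Tfap2b the interval of −1.14 to 1.15 allowed a change of 2-fold either way.

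**Figure D4:**
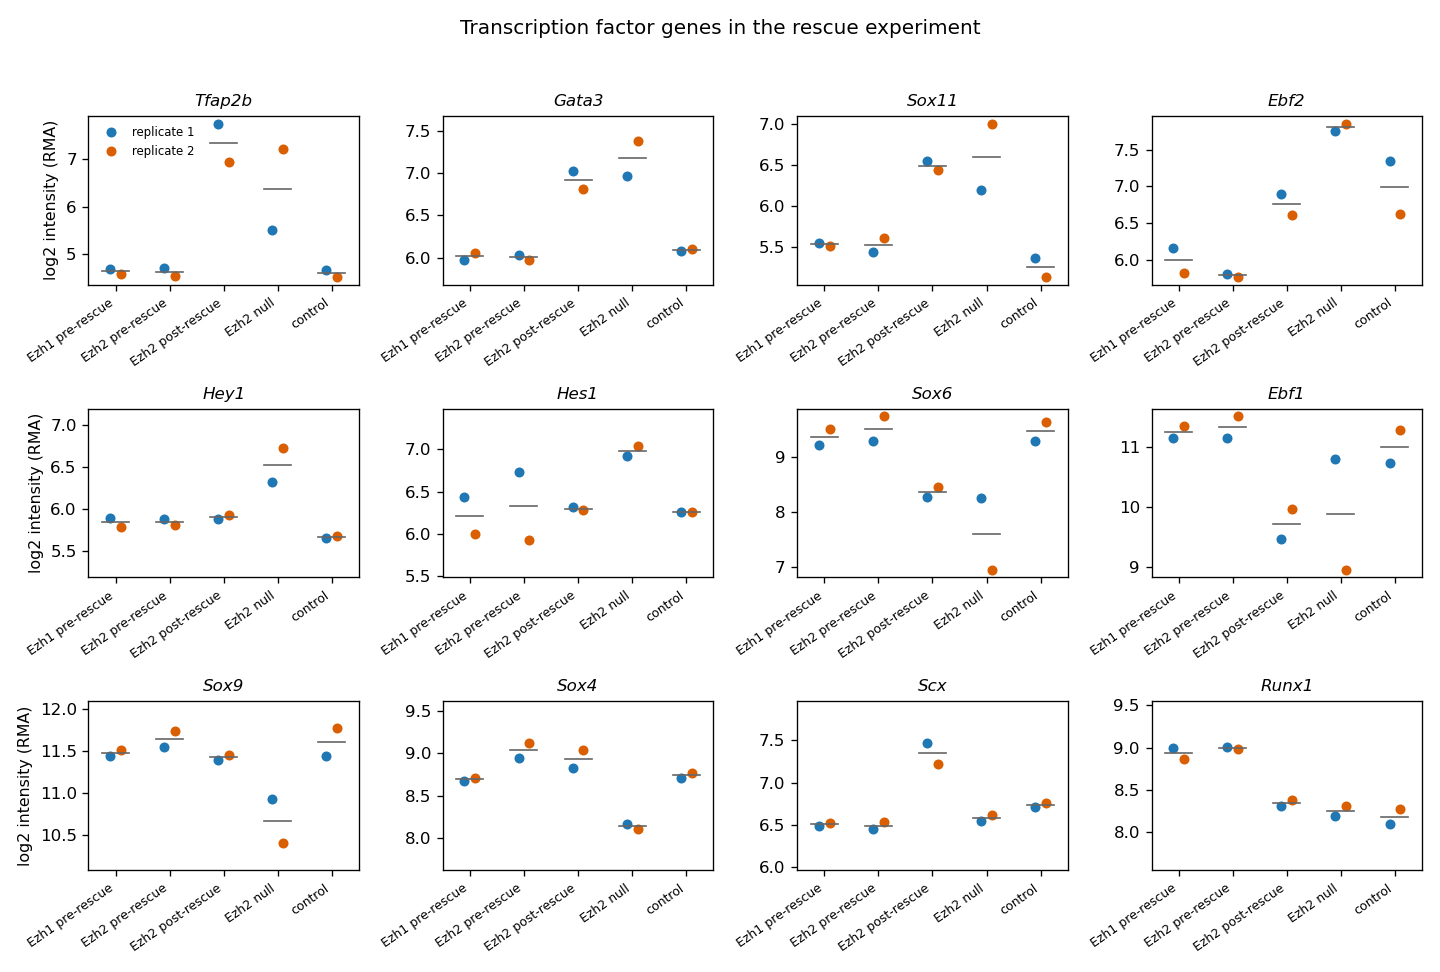
Log2 intensity of 12 members in Ezh1 pre-rescue, Ezh2 pre-rescue, Ezh2 post-rescue, Ezh2 null and control cells; points are the 2 replicate arrays, bars are group means, and each panel has its own axis of at least 2 units. Tfap2b, Gata3 and Sox11 are high in Ezh2 post-rescue and Ezh2 null cells and low in the other groups, Sox9 and Sox4 are low in Ezh2 null cells alone, and Scx is highest in Ezh2 post-rescue cells.

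When Ezh2 was supplied after the deletion, members fell into unlike courses. In Ezh2 post-rescue against Ezh2 null cells 2 members rose and 0 fell (3.45% and 0%, beside 0.191% and 0.409% of all genes), and 11 members had an unadjusted p under 0.05. Sox4 read 8.83 and 9.03 in Ezh2 post-rescue and 8.17 and 8.11 in Ezh2 null cells, and rose by 0.80 ± 0.09 (adjusted p = 0.0152), without overlap, as in 48.5% of all genes. Scx read 7.47 and 7.22 in Ezh2 post-rescue, 6.54 and 6.62 in Ezh2 null and 6.71 and 6.76 in control cells. Scx rose against both Ezh2 null and control cells, by 0.77 ± 0.10 (adjusted p = 0.0261) and 0.61 ± 0.10 (adjusted p = 0.0489), so that its level was not that of control cells. Sox9 and Ebf2 lay toward control, with changes against Ezh2 null cells of 0.76 ± 0.18 and −1.05 ± 0.18 that did not pass (adjusted p = 0.121 and 0.0572). The second Ebf2 probe set changed by 0.05. Hey1 read 5.88 and 5.94 in Ezh2 post-rescue cells, against 6.32 and 6.73 in Ezh2 null and 5.65 and 5.69 in control cells. It passed against neither.

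Tfap2b, Gata3 and Sox11 read above control in Ezh2 post-rescue cells without passing the test. Tfap2b read 7.75 and 6.94 in Ezh2 post-rescue, 5.50 and 7.22 in Ezh2 null and 4.67 and 4.52 in control cells. It lay 2.75 ± 0.49 above control (95% interval 1.60 to 3.90, adjusted p = 0.0674) and 0.98 above Ezh2 null cells (interval −0.17 to 2.13). Gata3 read 7.03 and 6.81 in Ezh2 post-rescue cells, 0.84 ± 0.14 above control (interval 0.51 to 1.16, adjusted p = 0.0532), and Sox11 6.55 and 6.44, 1.24 ± 0.22 above control (interval 0.72 to 1.76, adjusted p = 0.0680). No array of these 3 genes overlapped between Ezh2 post-rescue and control cells, as was so for 37.9% of all genes. Ebf1 read 9.46 and 9.97 and Sox6 8.27 and 8.46 in Ezh2 post-rescue cells, below control by 1.29 and 1.11 without passing. Against control 1 member rose and 0 fell (1.72% and 0%, beside 0.510% and 0.197% of all genes), and without the replicate block 4 rose, the others being Tfap2b, Gata3 and Sox11. The counts against Ezh2 null cells ran from 0 to 4 risen and 0 to 2 fallen when 1 array was left out: without Ezh2 post-rescue replicate 1 or replicate 2 they were 0 risen, at changes of 0.87 or 0.72 for Sox4 and 0.61 or 0.93 for Scx, and without Ezh2 null replicate 1 they were 4 risen and 2 fallen. The 1 rise against control was lost without control replicate 1 or 2 and without Ezh2 post-rescue replicate 1 or 2, at changes of 0.58, 0.65, 0.46 and 0.77.

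The change with Ezh2 loss was then compared between the experiments. The effect in Ezh2 null against control cells differed from that at day 32 against vehicle in 8 members (13.8%, beside 8.12% of all genes), in a fit that does not correct for the unequal spread of values in the 2 experiments. The labels give no time since the deletion for the rescue arrays, so the times compared may be unlike. Gata3 rose by 1.09 in Ezh2 null cells and by 2.22 at day 32. Ebf2 was 0.82 above control in Ezh2 null cells, which did not pass, and rose by 2.32 at day 32. Its second probe set changed by 0.20 and 0.17 in these comparisons. Sox11 rose by 1.35 in Ezh2 null cells and was 0.25 above vehicle at day 32, which did not pass. Hes1 was 0.72 above control in Ezh2 null cells, which did not pass, and fell at day 32. Tfap2b, Hey1, Sox6, Sox9 and Ebf1 had the same sign in both experiments, and their differences did not pass. Those differences were large for Tfap2b at −1.89 (1.77 against 3.66, adjusted p = 0.0680) and Hey1 at −1.16 (adjusted p = 0.05002). For Sox6, Sox9 and Ebf1 they were −0.05, −0.19 and −0.09.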

How the data were processed

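Total RNA of 18 samples was hybridised to Affymetrix Mouse Gene ST arrays. The deposited values are log2 intensities, which the authors obtained by RMA with the oligo package. A linear model in limma is also stated for the rescue arrays, which corrected a batch difference between the first and second replicates, and whether the deposited values carry that correction is not given in the sources used here. Of 28440 probe sets, 21217 carried 1 gene symbol, and the highest mean per gene left 18820 genes.

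Each experiment was fitted on its own in limma (version 3.58.1, R 4.3.3), using lmFit and eBayes with a term for every group, and with the replicate number as a block in the rescue experiment. Two-sided p-values were adjusted across all genes by the Benjamini-Hochberg method. The scripts were tested on simulated data. Promoters came from RefSeq. Members were given with array values where they passed the test with a change of 2-fold or more, and some others were chosen after their values were seen. The members and gene lists were chosen with earlier results of these data known. Alternatives were other normalizations, filters, probe set rules and designs, and leaving out each array. Replicate numbers were not used as pairs in the time course, where the correlation of replicate differences lay between −0.07 and 0.05 over 6 pairs of groups.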

Additional observations from a re-analysis of the deposited data

Results flagged for a closer look

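In 8 members the change in Ezh2 null against control cells differed from the effect at day 32 of the time course, by a test of the difference itself with limma over all 18 arrays. The difference (Ezh2 null minus control, less day 32 minus vehicle) was positive for Sox2 at 0.771 (adjusted p = 0.0079), Sox4 at 0.534 (adjusted p = 0.0115), Sox11 at 1.10 (adjusted p = 0.029), Hes1 at 1.16 (adjusted p = 0.0159) and Runx1 at 0.445 (adjusted p = 0.034). It was negative for Gata3 at −1.13 (adjusted p = 0.0042), Ebf2 at −1.50 (adjusted p = 0.0017) and Snai1 at −0.868 (adjusted p = 0.0034). The second probe set of Ebf2 changed by only 0.20 in Ezh2 null cells and 0.17 at day 32. Sox4 and Gata3 passed in the same direction in both experiments, while Sox11 passed only in Ezh2 null cells and Ebf2 only at day 32, with the same sign in the other experiment. Snai1 was 0.16 below control in Ezh2 null cells and 0.71 above vehicle at day 32. The values of the 2 experiments have unequal spread, and the labels give no time since the deletion for the rescue arrays. The part of either in these differences was not tested.

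Hes1 was above both vehicle arrays on both day 5 arrays and below both on both day 32 arrays, and the change between those times was −1.04 (adjusted p = 0.000125).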

How the results depend on the processing

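With each array centred on its median, 19, 19 and 18 members fell at days 5, 18 and 32, and in the rescue experiment 3 fell in Ezh2 null cells, 4 rose in Ezh1 pre-rescue against Ezh2 null, 1 fell in Ezh2 post-rescue against Ezh2 null and 2 rose in Ezh2 post-rescue against control. With quantile normalization 9 fell at day 5, 2 fell in Ezh2 null cells and 0 rose in Ezh2 post-rescue against control. Without the lowest 30% of genes 8 fell at day 5 and 2 in Ezh2 null cells. With a trended, robust prior 8 fell at day 5, 2 fell in Ezh2 null cells and 1 fell in Ezh2 post-rescue against Ezh2 null. With only the 2 groups compared 0 rose and 0 fell in Ezh2 null cells, 0 rose in Ezh1 pre-rescue and 2 rose in Ezh2 pre-rescue against Ezh2 null, 2 fell in Ezh2 post-rescue against Ezh2 null, and 3 rose and 2 fell against control.

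At an adjusted p under 0.15 and at least 2-fold, 0, 4 and 4 members rose and 1, 1 and 3 fell at days 5, 18 and 32, 1 and 2 rose in Ezh1 and Ezh2 pre-rescue against Ezh2 null, 0 rose and 1 fell in Ezh2 post-rescue against Ezh2 null, and 2 rose against control. Without the replicate block 3 fell in Ezh2 null cells, 4 rose and 5 fell in Ezh1 pre-rescue against Ezh2 null, and 4 rose in Ezh2 post-rescue against control.

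With 1 array left out, members that rose and fell ranged from 3 to 7 and 4 to 5 at day 5, 7 to 9 and 6 to 8 at day 18, 9 to 12 and 7 to 10 at day 32, 2 to 5 and 1 to 4 in Ezh2 null cells, 0 to 5 and 0 to 5 in each pre-rescue against Ezh2 null, 0 to 4 and 0 to 2 in Ezh2 post-rescue against Ezh2 null, and 0 to 1 and 0 to 0 against control. In Ezh2 post-rescue against Ezh2 null, Sox6 ranged from −0.054 (without Ezh2 null replicate 2) to 1.58 and Tfap2b from −0.033 (without replicate 1) to 2.00.

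Of 1085 alternative values for 99 changes of single members, 896 kept direction and side of the threshold, 129 lost the call (90 on leaving out an array), 58 gained it and 2 turned. The second Ebf2 probe set and the within-replicate differences were added after seeing the data. Counts of members under alternative settings are given without the share of all genes under the same setting. In the rescue experiment replicate differences correlated between −0.43 and 0.54 over 10 pairs of groups, 6 of them negative. With 2 arrays per group and 31 members below the array median throughout, of which 27 passed in no comparison with vehicle, a member that did not pass may still have changed.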
